A study of Mus musculus with 32 samples.

Results

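Of the 56459 features in the table, 5 separated every hippocampal from every cortical neuron population by mean level, at an even level within each region. The CamK and SST populations alone were sampled in both regions, so the other comparisons set unlike populations against each other. These 5 are the features whose mean level was at least 1.5 times as high in each population of one region as in any population of the other. Even means here only that the highest group mean in a region was under 2 times the lowest, and cortical means were 1.46 to 1.99 times apart. For each feature higher in the hippocampus, that cortical spread exceeded the ratio of the lowest hippocampal to the highest cortical mean. The values were 1.99 against 1.86 for GSMG0008468, 1.60 against 1.55 for GSMG0001719 and 1.62 against 1.502 for GSMG0025572. GSMG0008468, GSMG0001719 and GSMG0025572 were higher in the hippocampus, and GSMG0024213 and GSMG0023341 were higher in the cortex. Levels are given in CPM, a feature's count divided by the total of its library's column and multiplied by 1000000. Besides the ratio of 1.5, the choice required 1 CPM or more in every library of the higher region, and a highest group mean under 2 times the lowest within each region. It used the group means of all 32 libraries, so the regional difference of the 5 features is described here without a test. The features carry identifiers without gene names in the files, and the reference tables held 0 of the identifiers, so no gene, function, position or sequence is attached to them. At most 2 features per direction were to be named, and GSMG0025572 was named in addition after its values were seen.

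The libraries hold ribosome-associated RNA of the mouse forebrain, all of the genotype labelled WT, in 8 groups of 4. The hippocampal groups are CamK, Grik and SST, and the cortical groups are CamK, Scnn, PV, SST and VIP. From knowledge of the study and not from the labels, each population is defined by a Cre driver line that switches on a tagged ribosomal protein. A group is thus named for the cells in which that driver was active. Whether its libraries also held RNA of other cells was not tested. By the same knowledge PV, SST and VIP are GABAergic interneurons, and the CamK, Scnn and Grik populations are glutamatergic. With unnamed features no marker gene could be looked up to check them. The age of the animals is not given in the labels, and nothing in them says that replicates came from separate animals. In bulk RNA of this kind, fewer cells of a type and less RNA per cell cannot be told apart. Column totals lay between 100158438 and 114153919, except for SST hippocampus replicate 1 at 186505391.

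As background, cortical and hippocampal pyramidal neurons both arise from the dorsal forebrain, whereas PV and SST interneurons of both regions migrate in from the ventral forebrain. Region and neuron class are thus separate labels of these samples, with both classes in each region, though only CamK and SST were sampled in both regions. A feature that separates the regions in all groups cuts across the classes. RNA bound to ribosomes reports what a cell is in a position to translate, which depends both on how much transcript is present and on how well it is engaged.

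Few features met the ratio of 1.5 for every hippocampal group against every cortical group, and fewer still at an even level. The ratio sets unlike populations against each other too. A feature that differed between the regions within each population could therefore fail it. Only CamK and SST were sampled in both regions. A level of 1 CPM in all 32 libraries was reached by 11515 features, and 6310 of them had group means under 2 times apart within each region. Over these 6310 features the mean of the hippocampal groups was a median of 1.02 times the mean of the cortical groups, with 0.607 at percentile 1 and 1.56 at percentile 99. Without the limit on the range within a region, 45 features met the ratio and the 1 CPM minimum, 23 higher in the hippocampus and 22 higher in the cortex. Of the 23, the range reached 2 times among cortical groups in 19 and among hippocampal groups in 16. Of the 22, these numbers were 18 and 10. The widest regional separations were among uneven features. The ratio of the lowest mean in the higher region to the highest mean in the other region went up to 23.6 on the hippocampal side and 12.2 on the cortical side, whereas the 5 even features had ratios of 1.502 to 1.86. In each direction most of these 45 features, 13 of 23 and 16 of 22, exceeded the highest ratio of the even features on their side.

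**Figure D1:**
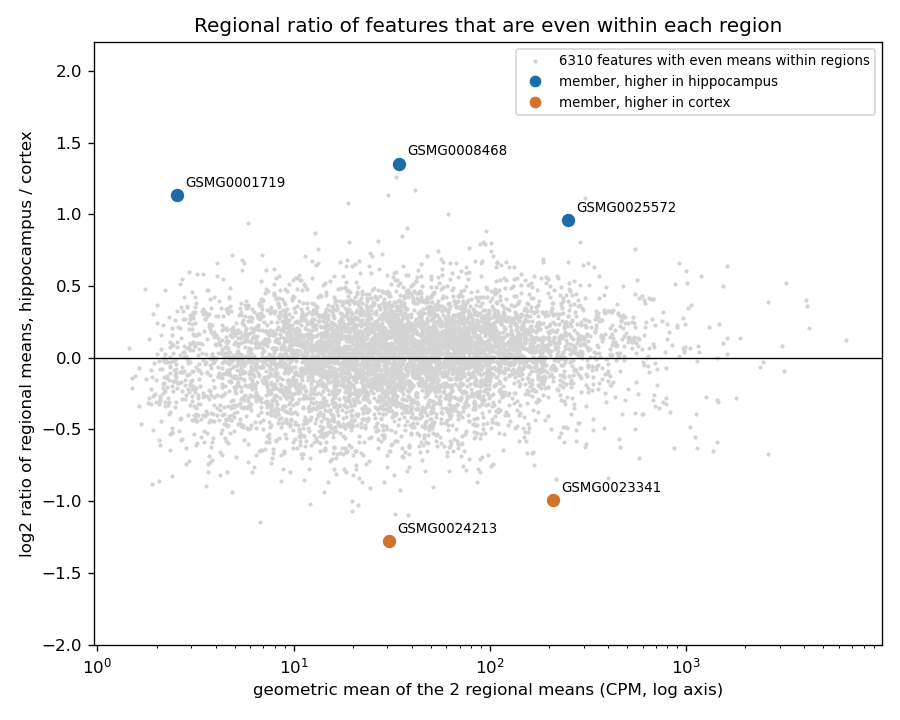
Each grey point is one of 6310 features with at least 1 CPM in all 32 libraries and group means under 2 times apart within each region. The horizontal axis is the geometric mean of the hippocampal and cortical means in CPM on a log axis, and the vertical axis is the log2 ratio of the hippocampal over the cortical mean. Blue and orange points are the 3 members higher in the hippocampus and the 2 higher in the cortex. GSMG0001719 is drawn although a few cortical libraries were under 1 CPM for it. GSMG0008468 and GSMG0024213 have the largest ratios in their directions (2.555 and 0.412 times). A mean ratio of at least 1.5 was reached by 89 grey features in the hippocampal and 185 in the cortical direction. Of these only members met the ratio in every pair of groups.

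GSMG0008468 had the widest separation on the hippocampal side. Its 4 libraries each stood at 47.1, 46.6, 59.4 and 55.1 CPM in CamK hippocampus, 53.7, 57.5, 52.8 and 58.9 CPM in Grik hippocampus, and 66.6, 58.5, 52.8 and 48.2 CPM in SST hippocampus. In the cortex it had 10.97, 15.8, 16.7 and 12.8 CPM in CamK, 27.4, 26.9, 23.9 and 28.6 CPM in Scnn, 17.2, 27.3, 23.6 and 21.1 CPM in PV, 29.9, 28.2, 30.4 and 23.5 CPM in SST, and 14.7, 15.8, 20.5 and 13.3 CPM in VIP. The regions did not overlap, since the lowest hippocampal library (46.6 CPM) was 1.53 times the highest cortical library (30.4 CPM). Within the hippocampus the 3 populations were nearly level, with means 1.09 times apart at most and overlapping libraries. The cortical means spread 1.99 times, just inside the limit, from 28.0 ± 3.13 CPM in SST and 26.7 ± 1.97 CPM in Scnn through 22.3 ± 4.26 CPM in PV to 16.1 ± 3.11 CPM in VIP and 14.1 ± 2.66 CPM in CamK (SD, n = 4 each). The libraries of neighbours in that order overlapped, and of the glutamatergic populations Scnn stood near its top and CamK at its bottom. The SST mean was 1.09 times the CamK mean in the hippocampus and 1.99 times the CamK mean in the cortex. Accordingly the hippocampal mean was 2.02 times the cortical one in SST and 3.70 times the cortical one in CamK.

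GSMG0025572 had the most even hippocampal means of the 5. It had 385, 359, 359 and 309 CPM in CamK hippocampus, 341, 342, 364 and 310.2 CPM in Grik hippocampus, and 366, 335, 398 and 295 CPM in SST hippocampus. Cortical libraries held 180.5, 181, 159 and 143 CPM in CamK, 152, 124, 139 and 142 CPM in Scnn, 256, 188, 224 and 205 CPM in PV, 244, 191, 238 and 229.9 CPM in SST, and 136, 158, 115 and 159 CPM in VIP. The hippocampal means were within 1.04 times of each other, and the regions did not overlap (lowest hippocampal library 295 CPM, highest cortical library 256 CPM). In the cortex SST (226 ± 23.9 CPM) and PV (218 ± 29.1 CPM) stood above CamK (166 ± 18.6 CPM), VIP (142 ± 21.3 CPM) and Scnn (139 ± 11.8 CPM), and every PV library was above every CamK library (SD, n = 4 each). The lowest hippocampal mean, that of Grik, was 1.502 times the SST cortex mean, so this feature lay almost on the threshold. The hippocampal mean was 1.54 times the cortical one within SST and 2.13 times within CamK.

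GSMG0001719 had the same direction at a few CPM. Its libraries stood at 4.50, 3.08, 3.92 and 4.16 CPM in CamK hippocampus, 5.28, 3.67, 3.22 and 3.33 CPM in Grik hippocampus, and 3.93, 2.96, 3.38 and 3.68 CPM in SST hippocampus. In the cortex they stood at 1.499, 2.19, 2.01 and 1.72 CPM in CamK, 0.938, 1.48, 1.55 and 2.15 CPM in Scnn, 1.81, 0.952, 1.21 and 1.66 CPM in PV, 1.88, 1.23, 1.62 and 1.30 CPM in SST, and 2.07, 1.52, 2.79 and 2.64 CPM in VIP. The regions were again apart, but narrowly, with 2.96 CPM in the lowest hippocampal library and 2.79 CPM in the highest cortical library. VIP was the cortical group nearest to the hippocampus (2.25 ± 0.578 CPM, SD, n = 4), and the ratio of 1.55 that placed the feature among the members was that of SST hippocampus (3.49 ± 0.420 CPM) over VIP cortex. Counts were between 102 and 734 per library, and the coefficient of variation within groups was 12.03% to 32.5%. Neighbouring populations overlapped in both regions. Within SST the hippocampal mean was 2.31 times the cortical one and within CamK 2.11 times, which makes it the only member of the hippocampal side with the larger ratio in SST.

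GSMG0024213 was the more widely separated of the features higher in the cortex. It had 20, 19.9, 12.3 and 15.9 CPM in CamK hippocampus, 26.1, 22.2, 22.2 and 21.6 CPM in Grik hippocampus, and 18.1, 19.6, 19.5 and 18.9 CPM in SST hippocampus. Cortical values were 44.8, 46.1, 42.9 and 51.0 CPM in CamK, 43.2, 49.2, 48.2 and 51.2 CPM in Scnn, 46.0, 45.0, 41.6 and 49.0 CPM in PV, 35.0, 42.0, 30.6 and 43.9 CPM in SST, and 65.3, 51.5, 70.9 and 57.6 CPM in VIP. The highest hippocampal library (26.1 CPM, in Grik) stayed under the lowest cortical library (30.6 CPM, in SST). The libraries of CamK, Scnn and PV cortex overlapped, with means of 45.4 to 47.9 CPM, while every VIP library lay above every Scnn library. In the hippocampus Grik (23.0 ± 2.09 CPM) was above SST (19.0 ± 0.701 CPM) in every library, and SST overlapped CamK (17.0 ± 3.69 CPM; SD, n = 4 each). Hippocampal means were 0.502 times the cortical ones in SST and 0.368 times in CamK.

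GSMG0023341 was the other feature higher in the cortex. It had 154, 138, 139 and 209 CPM in CamK hippocampus, 101, 105, 131 and 137 CPM in Grik hippocampus, and 153, 185, 158 and 170.0 CPM in SST hippocampus. In the cortex it had 238, 227, 294 and 268 CPM in CamK, 316, 310.2, 432 and 440.3 CPM in Scnn, 237, 339, 306 and 273 CPM in PV, 251, 336, 232 and 296 CPM in SST, and 280.3, 269.7, 261 and 304 CPM in VIP. Its regions were separate but close, with 209 CPM in the highest hippocampal and 227 CPM in the lowest cortical library, both of CamK. Scnn held the highest cortical mean (375 ± 71.3 CPM), although its libraries overlapped those of PV (289 ± 43.9 CPM), and SST, VIP and CamK followed at 279, 279 and 257 CPM. Grik held the lowest hippocampal mean (119 ± 18.1 CPM), with every library under those of CamK (160.0 ± 33.2 CPM; SD, n = 4 each). The hippocampal mean was 0.597 times the cortical one within SST and 0.624 times within CamK.

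**Figure D2:**
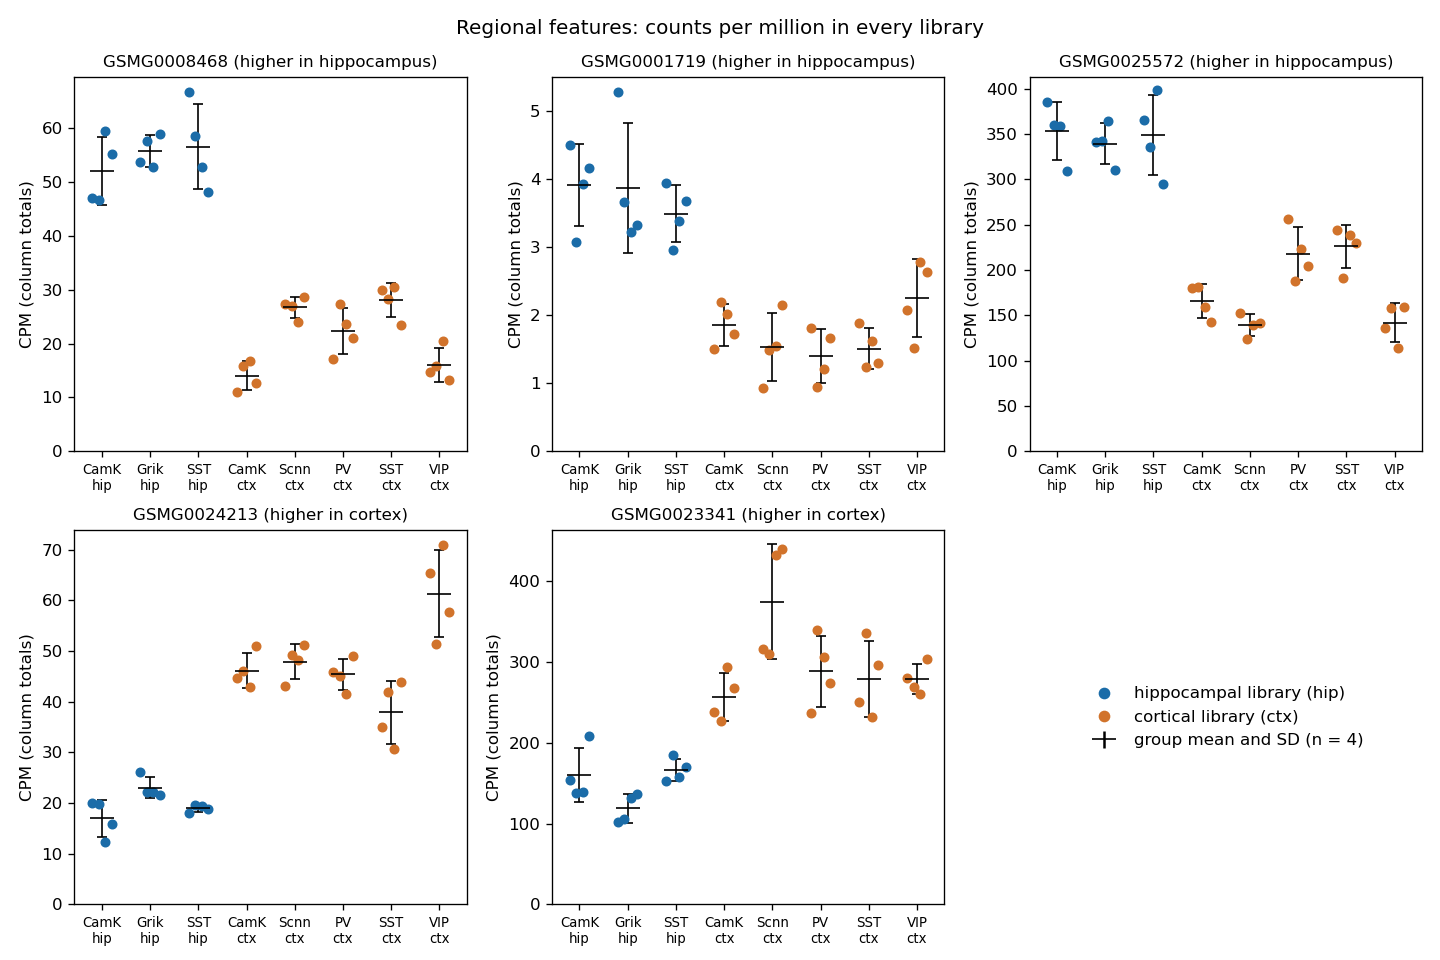
Each panel shows a member, with the CPM of every library on the vertical axis and the 8 groups on the horizontal axis, hippocampal groups in blue and cortical groups in orange. The black line and bar are the group mean and SD over 4 libraries. In all 5 panels no blue point overlaps the orange points in level, and for the 3 features higher in the hippocampus the blue groups are closer to each other than the orange groups.

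No library of either region overlapped the other for the 5 members. Over the 24555 features kept by the filter on low counts, such separation was found for 0.216% in the hippocampal and 0.273% in the cortical direction, and the choice of members favours it. Across the 15 combinations of a hippocampal and a cortical group, the hippocampal over cortical ratio ran from 1.86 to 4.02 for GSMG0008468, from 1.55 to 2.78 for GSMG0001719 and from 1.502 to 2.53 for GSMG0025572. It ran from 0.277 to 0.608 for GSMG0024213 and from 0.317 to 0.649 for GSMG0023341. The smallest separations did not all fall in the same combination. Grik hippocampus against SST cortex was the closest combination for both GSMG0025572 and GSMG0024213. It was CamK hippocampus against SST cortex for GSMG0008468, SST hippocampus against VIP cortex for GSMG0001719, and SST hippocampus against CamK cortex for GSMG0023341.

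**Figure D3:**
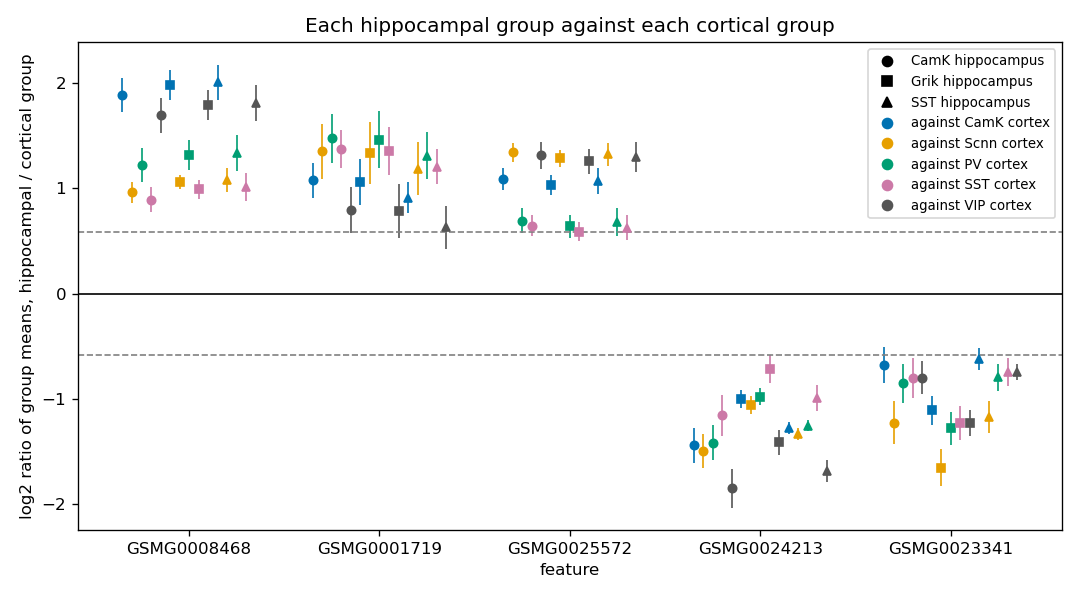
Points are the log2 ratio of a hippocampal over a cortical group mean for the 15 combinations per feature, with symbols for the hippocampal and colours for the cortical group. Bars are the SE of the log2 ratio from the 4 libraries of each group, and dashed lines mark a ratio of 1.5 in either direction. Points of GSMG0025572, GSMG0001719 and GSMG0023341 lie near a dashed line. The points of GSMG0008468 are higher against CamK and VIP cortex than against Scnn, PV and SST cortex.

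In a model fitted to all 24555 features with edgeR, the mean log2 difference of hippocampus over cortex was 1.49 (SE 0.07) for GSMG0008468, 1.24 (SE 0.12) for GSMG0001719 and 1.07 (SE 0.06) for GSMG0025572. It was -1.19 (SE 0.06) for GSMG0024213 and -0.91 (SE 0.08) for GSMG0023341. A call needed an adjusted p below 0.05 together with a change of 1.5-fold or more. All 5 members were called in their direction, against 9.57% of the features tested as higher and 19% as lower in the hippocampus. Only CamK and SST are in both regions, so in this contrast region and population cannot be told apart. Within CamK all 5 were called as well, where the share over all features was 8.38% higher and 13.2% lower. Within SST the 5 were called too, against 5.53% higher and 6.44% lower. The choice of members used these contrasts, so nothing is read from the counts. The median log2 difference over all features tested was -0.067 between the regions, -0.0026 within CamK and 0.017 within SST. GSMG0025572 was at 0.62 (SE 0.11) within SST, close to the fold threshold of the call, and lost it without SST cortex replicate 2 (0.56), SST hippocampus replicate 1 (0.58) or SST hippocampus replicate 3 (0.57).

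The estimated regional difference was smaller in SST than in CamK for some features, and for others the estimates were within an SE. On the log2 scale the SST difference minus the CamK difference was -0.83 (SE 0.19) for GSMG0008468, -0.41 (SE 0.16) for GSMG0025572 and 0.50 (SE 0.16) for GSMG0024213, each of which means a smaller regional difference in SST. It was 0.19 (SE 0.33) for GSMG0001719 and -0.02 (SE 0.20) for GSMG0023341, less than its SE in both. No p-value is read from these differences, since the choice of members bounds them.

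Every hippocampal group has titles with a W before the replicate number, and among the cortical groups only VIP has one. Within the titles that carry the W, the mean of the hippocampal groups was 3.41 times that of VIP cortex for GSMG0008468, 2.44 times for GSMG0025572 and 1.67 times for GSMG0001719. It was 0.321 times that of VIP cortex for GSMG0024213 and 0.533 times for GSMG0023341. These directions were fixed by the choice of members, which set every hippocampal group against VIP cortex too, so they are no check on the W. VIP cortex stood further from the hippocampus than the mean of the other cortical groups for GSMG0008468 (16.1 against 22.8 CPM), GSMG0025572 (142 against 187 CPM) and GSMG0024213 (61.3 against 44.3 CPM). It stood nearer for GSMG0001719 (2.25 against 1.58 CPM) and GSMG0023341 (279 against 299.7 CPM). For the other 4 cortical groups, the W in the title and the region cannot be told apart.

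The deposited lengths of the members, taken to be in bases, were 1046 for GSMG0008468, 9510 for GSMG0001719 and 2120 for GSMG0025572 on the hippocampal side, and 4560 for GSMG0024213 and 546 for GSMG0023341 on the cortical side. The median over features at 1 CPM in all libraries was 1424, with quartiles of 875 and 2457, so the set held both long and short features. Per kilobase of length, hippocampal and cortical levels were 52.4 and 20.5 CPM for GSMG0008468, 0.395 and 0.180 CPM for GSMG0001719, and 164 and 84.1 CPM for GSMG0025572. The same levels were 4.32 and 10.5 CPM for GSMG0024213, and 272 and 541 CPM for GSMG0023341. Per length GSMG0001719 was the lowest and GSMG0023341 the highest of the 5 in both regions.

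Which population was highest or lowest also differed from member to member. In the hippocampus CamK and SST were each highest for 2 members and Grik for 1, and in the cortex SST and VIP were each highest for 2 and Scnn for 1. Over the 11515 features at 1 CPM in all libraries, SST was the highest hippocampal group for 44.1%, CamK for 34.0% and Grik for 21.8%. For the same features the highest cortical group was PV for 25.8%, VIP for 25.5%, CamK for 19.9%, SST for 15.9% and Scnn for 12.9%. By column totals, cortical means spread more widely than hippocampal means for all 5 members and for 77.8% of those features, with 5 groups in the cortex and 3 in the hippocampus. Under TMM this turned for GSMG0024213, whose range was 1.44 times in the hippocampus and 1.38 times in the cortex.

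Variation among libraries of the same group averaged 13.4% for GSMG0008468, 21.9% for GSMG0001719, 10.8% for GSMG0025572, 10.7% for GSMG0024213 and 14.2% for GSMG0023341 as a coefficient of variation over the 8 groups. Each was above the median of features within 1.5 times of its level that had 1 CPM or more in all 32 libraries. That median was 9.0%, 16.6%, 7.76%, 8.83% and 7.75% in the same order. GSMG0001719 itself was under 1 CPM in some cortical libraries, so its comparison is with features of a stricter minimum. The choice used the means of these same libraries, so this spread is not independent of it. Deviations from the group means on the log2 CPM scale did not rise and fall together across the set. The 10 Pearson correlations between members over 32 libraries lay between -0.418 (GSMG0025572 and GSMG0023341) and 0.183 (GSMG0001719 and GSMG0024213). Some pairs ran in opposite directions. GSMG0008468 correlated at -0.347 with GSMG0025572 and at -0.295 with GSMG0024213, and GSMG0025572 at -0.286 with GSMG0024213. The remaining pairs lay between -0.143 and 0.183. The libraries behind these correlations share their column totals.

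The threshold divides features that differ little. Just outside, a feature on the hippocampal side failed with a ratio of 1.495 (hippocampal means of 41.2 to 63.1 CPM, cortical means of 15.5 to 27.5 CPM), against 1.502 for GSMG0025572 just inside. On the cortical side the nearest had 1.45 (hippocampal means of 1.498 to 1.53 CPM, cortical means of 2.23 to 3.53 CPM), against 1.54 for GSMG0023341. The nearest features that failed on evenness alone had ranges of 2.78 and 2.13 times. Scaling moved the set as well. With the TMM normalisation of edgeR, 3 features met the same conditions, and 2 of them, GSMG0001719 and GSMG0025572, were among the 5. TMM set the effective total of VIP cortex to 1.19 times and that of Grik hippocampus to 0.912 times the column total. Under TMM the cortical range of GSMG0008468 became 2.04 times, and the ratios of GSMG0024213 and GSMG0023341 became 1.48 and 1.42. Single libraries decided membership too. GSMG0008468 exceeded the limit on the cortical range, and so was lost, without CamK cortex replicate 2 (2.08 times), CamK cortex replicate 3 (2.13 times) or SST cortex replicate 4 (2.10 times). GSMG0001719 had a ratio of 1.48 without SST hippocampus replicate 1, the deepest library, and 1.40 without VIP cortex replicate 2. For GSMG0025572 the ratio was 1.43 to just under 1.5 without Grik hippocampus replicate 3, 4 or 5, PV cortex replicate 2, SST cortex replicate 2 or SST hippocampus replicate 3. GSMG0023341 had a ratio of 1.47 without CamK cortex replicate 3. GSMG0024213 met the conditions with each of the 32 libraries left out in turn.

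**Figure D4:**
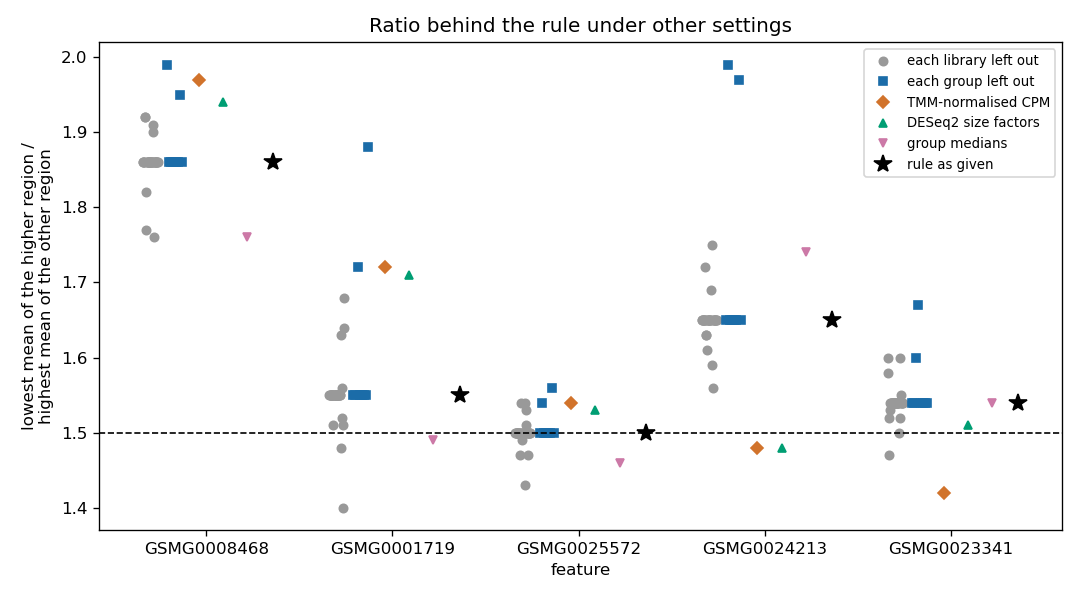
The vertical axis is the lowest group mean of the higher region over the highest group mean of the other region, for each member. Symbols give this ratio with each of 32 libraries left out, each of 8 groups left out, 2 other scalings and group medians, and the star gives the rule as applied. The dashed line is the threshold of 1.5. GSMG0008468 stays above the line in every setting drawn, and the other 4 have at least 1 symbol under it.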

How the data were processed

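The authors deposited expected counts (estimated, so often fractional) for each feature in 32 libraries of ribosome-associated RNA. Of the values above 0, 20.1% were whole within 1e-06. Per the submitters' processing notes, the genome build GRCm38 and the tools featureCounts, SAMtools, Picard and FastQC were in use, their roles and versions unnamed. The aligner, annotation, counting mode and strand setting were not given in the sources used here, so overlapping features and near-identical copies are uncertain. A deposited length per feature (column header "length") and a code with no stated meaning come with the table, and the code was not used. A further 12 columns match no sample of the labels and were not used.

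CPM by column total, the group means and the membership conditions were computed from the unrounded counts. For edgeR 4.0.16 in R 4.3.3 the expected counts were rounded, 24555 features were kept by filterByExpr, TMM scaling was applied, and all 32 libraries entered a robust quasi-likelihood fit with a coefficient for each group (24 residual degrees of freedom). P-values were adjusted by Benjamini-Hochberg over all features tested. The script was tested on simulated data. A standard error is the log2 difference over the square root of F. DESeq2 1.42.0 served as an alternative. The members, the conditions and the comparisons were chosen with earlier results of these data known. Features to be named were the 2 per direction with the largest ratio, and no gene list could be used on unnamed features. P-values and SEs measure only the spread between these libraries, which may be technical.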

Additional observations from a re-analysis of the deposited data

Results flagged for a closer look

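In Grik hippocampus, replicate 3 stood apart from the other libraries of its group for GSMG0024213, at 26.1 CPM against 21.6 to 22.2 CPM. It was flagged because its gap to the nearest library took 0.865 of the group's range, above Dixon's critical value for 4 values. It was the only such case in 40 groups of 4 (5 members in 8 groups), and chance flags about 1 in 20. The library is the highest hippocampal value of this cortical feature.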

How the results depend on the processing

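The number of features meeting the conditions depended on many of the settings tried. It was 3 with TMM-normalised CPM and 3 with group medians, both against 5 as applied. With group medians all 3 were higher in the cortex and 0 were higher in the hippocampus, so every hippocampal member was lost. DESeq2 size factors gave 5, of which 4 were the same features, and GSMG0024213 was lost at a ratio of 1.48. At a lower ratio, 5 to 4, the number was 53 (8 higher in the hippocampus, 45 in the cortex). It was 0 at a ratio of at least 2 and 45 with no limit on the range within a region. With a range under 1.5 times it was 1, and with no minimum CPM it was 11. Without 1 group there are fewer conditions to meet: the number was 14 without CamK hippocampus, 7 without Grik hippocampus, 116 without SST hippocampus, 12 without CamK cortex, 12 without Scnn cortex, 8 without PV cortex, 18 without SST cortex and 11 without VIP cortex, and the 5 members necessarily stay among them. With each of 32 libraries left out in turn it was 4 to 6. The cause of the changes under other scalings and medians was not tested.

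The edgeR calls were 7007 between the regions (over all populations, which differ by region), 5308 within CamK and 2938 within SST. With single libraries left out they were 6913 to 7231, 4958 to 5372 and 2466 to 3006. With a replicate block the counts were 6586, 5180 and 2900. Deviations of same-numbered CamK and SST libraries correlated between the regions at -0.037 to 0.058. The other groups were not checked, and these correlations cannot settle whether libraries of the same number were paired. Under these, other filters and DESeq2, the members kept their call in 552 of 555 recomputed log2 differences, a count that the choice of members favours. Depth limits GSMG0001719 most of the 5, with as few as 102 counts in a library.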
